A study of Mus musculus with 18 samples.

Results

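The response of primary mouse microglia to tau fibrils was compared between 2 Trem2 genotypes, gene by gene, as a genotype by tau interaction. The contrast is between 12 of the 18 RNA sequencing libraries of the study, those of the 4 groups that received no MK2206, chosen by their labels and not by any measured value. All 18 were filtered, scaled and fitted together. The 6 libraries with MK2206 thus enter the choice of genes tested, the scaling and the estimate of spread, and thereby the calls. Microglia, the resident macrophages of the brain, came from pups of postnatal day 0 to 3 and were grown for 10 days in mixed culture. The groups were mTrem2 +/+ cells, with mouse Trem2 on both alleles (called Trem2+/+ here), without tau and with tau, and hTrem2 R47H/+ cells, in which 1 allele carries human TREM2 with the R47H change (called R47H/+ here), without tau and with tau. Each group had 3 libraries. No group carried human TREM2 without the R47H change, so the R47H change and the human allele cannot be told apart in any difference between the genotypes. Tau was given as fibrils of the 0N4R isoform at 1 ug per ml, and the time of exposure is not given in the sources used here. All 4 groups had a 6 h pre-treatment with 0.01% DMSO, the vehicle of MK2206. The interaction is the log2 change with tau in R47H/+ minus the log2 change with tau in Trem2+/+, so that 1 stands for a tau fold change 2 times as large in R47H/+ and -1 for one 2 times as large in Trem2+/+. It was tested for 13267 of the 54532 genes in the table, those that passed the filter on low counts.

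TREM2 is a surface receptor of microglia that binds lipids and lipoproteins and signals through the adaptor TYROBP to the kinase SYK, and the R47H form is a risk variant for Alzheimer's disease with reduced ligand binding. Aggregated tau is taken up by microglia and can start innate immune signalling: nucleic acid and pattern recognition receptors lead to type I interferon, which acts on genes with interferon-stimulated response elements (ISRE), and to NF-kB, whose target genes include its own inhibitors. Activated kinases of the MAPK family induce early response genes such as Fos and Egr2 and, with them, the dual-specificity phosphatases that switch these kinases off. An interaction on a log scale compares folds, so a gene that starts higher in one genotype can show a smaller fold there with a larger gain in absolute level.

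The 12 libraries held between 16288531 and 20686299 counts each. Whether the 3 libraries of a group were separate cultures or animals is not stated in the labels. The p-values therefore measure only the spread between these libraries, which may be technical. In Trem2+/+ without tau replicate 3 and R47H/+ with tau replicate 2, counts of long genes were reduced and those of short genes raised, compared with the other replicates of their group. The slopes were -1.27 and -0.60 in log2 CPM (read counts scaled to library size) for each 10-fold step in gene length, while the other 10 libraries had slopes of -0.10 to 0.19. These are called the length-shifted libraries; their trends add up in the interaction, and each count of interaction calls and each named interaction that passed the threshold is given with all libraries and without both. Differences between pairs of groups are from all libraries unless stated. Csf1r, C1qa and Tyrobp, which define microglia and macrophages, had group means of at least 735 CPM, whereas Tmem119, a marker of microglia in the brain, lay at 0.642 to 1.48 CPM. Summed over 12 markers of each type, neurons reached at most 5.87 CPM and lymphocytes at most 5.70 CPM in any library, and astrocytes 63.2 to 108 CPM. Oligodendrocyte lineage markers, mostly Mbp and Cnp, summed to 226 to 311 CPM. The 14 markers of border macrophages, monocytes and granulocytes, mostly Pf4, Mrc1, Chil3 and, with tau, Ly6c2, were the highest of these sums. They summed to 944 to 1560 CPM in Trem2+/+ without tau and 917 to 990 CPM with tau. In R47H/+ the sums were 685 to 757 CPM without tau and 579 to 711 CPM with tau. By group means Ly6c2 rose with tau, from 4.66 to 146 CPM in Trem2+/+ and from 12.3 to 177 CPM in R47H/+. Chil3 was also higher with tau, while Pf4 and Mrc1 were lower, in both genotypes. The granulocyte markers S100a9 and Ly6g were at 0 in all 12 libraries. The 12 fibroblast and vascular markers, mostly Kdr, summed to 6.41 to 14.1 CPM in Trem2+/+ without tau, 42.3 to 47.8 CPM with tau, 27.1 to 34.8 CPM in R47H/+ without tau and 59.5 to 98.6 CPM with tau. The part of these cell types in the results was not tested. In bulk samples, fewer cells of a type and less RNA per cell cannot be told apart.

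The interaction passed the threshold, an adjusted p under 0.05 by edgeR's quasi-likelihood test with Benjamini-Hochberg correction, for 713 genes, 5.37% of those tested. Of these, 272 (2.05%) were positive, a more positive response to tau in R47H/+, and 441 (3.32%) were negative. Without both length-shifted libraries 1610 of 13498 genes were called (11.9%), with 613 positive (4.54%) and 997 negative (7.39%). Called in both fits with the same sign were 684 genes, 256 positive and 428 negative, which is 95.9% of the calls with all libraries and 42.5% of those without both; the other 29 kept their sign but were not called, and 0 changed sign. The count also moved with other choices of libraries. It was 360 (126 positive, 234 negative) when the 12 libraries were fitted alone, 359 of them shared with the same sign, 471 without R47H/+ replicate 2 without tau, and 1537, of which 54.1% were positive, without Trem2+/+ replicate 1 without tau. The median interaction over all genes tested was -0.01 with all libraries and -0.04 without both. The shares of all genes, 2.05% positive and 3.32% negative (4.54% and 7.39% without both), are the background for every list count below.

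The 428 negative genes had a high median tau response in Trem2+/+ and a low one in R47H/+. Their median tau response was 1.46 on the log2 scale in Trem2+/+ and 0.29 in R47H/+, and their median difference of R47H/+ from Trem2+/+ was 1.24 without tau and 0.03 with tau. Without both length-shifted libraries these medians were 1.41, 0.33, 1.15 and 0.10. Single comparisons in the same model sorted them: 190 were called higher with tau in both genotypes, 89 in Trem2+/+ with no call in R47H/+, 79 were called lower with tau in R47H/+ with no call in Trem2+/+, 45 lower in both, and 24 higher in Trem2+/+ but lower in R47H/+. By genotype, 204 were called higher in R47H/+ without tau and not called with tau, 112 higher in R47H/+ both without and with tau, 71 not called without tau and lower with tau, and 17 higher without but lower with tau. Without both libraries more of the single comparisons were called: 229 of the negative genes were higher with tau in both genotypes and 45 in Trem2+/+ with no call in R47H/+, and by genotype 177 were higher in R47H/+ both without and with tau and 133 without tau alone. Over all genes tested, 14.4% were called higher and 12.1% lower with tau in Trem2+/+, 15% and 12.6% with tau in R47H/+, 8.22% and 6.83% in R47H/+ against Trem2+/+ without tau, and 5.25% and 4.24% with tau. Without both the shares were 21.6% and 19.8% with tau in Trem2+/+, 21.6% and 21.1% with tau in R47H/+, 15.8% and 13.1% by genotype without tau, and 11.9% and 11.4% with tau. These single comparisons share libraries with the interaction and describe its shape without adding support.

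The 256 positive genes had the mirrored shape with smaller tau responses. Their median tau response was -0.36 in Trem2+/+ and 0.71 in R47H/+, and R47H/+ stood at a median of -0.71 against Trem2+/+ without tau and 0.38 with tau. Without both the medians were -0.29, 0.61, -0.62 and 0.33. With tau, 88 were called higher in R47H/+ with no call in Trem2+/+, 74 lower in Trem2+/+ with no call in R47H/+, 42 higher in both, 30 lower in Trem2+/+ but higher in R47H/+, and 18 lower in both. By genotype, 140 were called lower in R47H/+ without tau and not called with tau, 63 were not called without tau and higher with tau, and 25 crossed from lower to higher; without both these were 105, 54 and 60. Without both 67 were higher with tau in R47H/+ with no call in Trem2+/+, 55 lower in Trem2+/+ with no call in R47H/+ and 47 lower in Trem2+/+ but higher in R47H/+. In the R47H/+ cells with MK2206, whose libraries the contrast does not use, the median tau response was 0.84 for the negative and 0.13 for the positive genes, for which no test is given. On the scale of CPM, 101 of the 428 negative genes gained more with tau in R47H/+ than in Trem2+/+, against 2 of the 256 positive genes with the opposite sign.

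**Figure D1:**
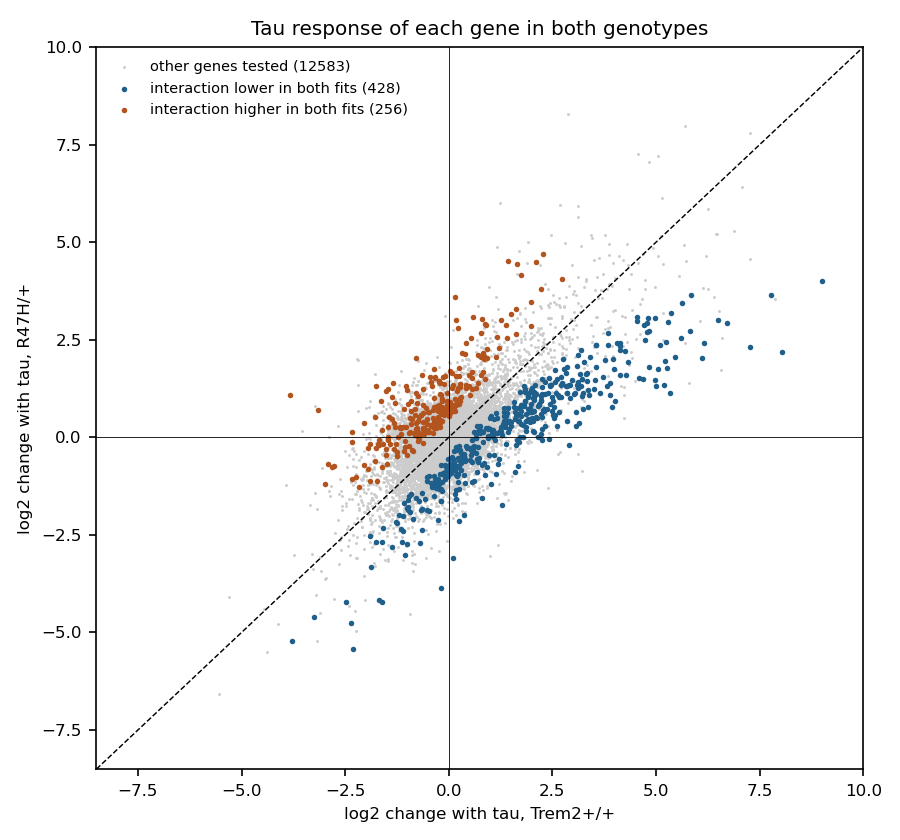
Each point is a gene tested, with its log2 change with tau in Trem2+/+ (horizontal) and in R47H/+ (vertical) from the fit of 18 libraries, and the dashed line marks equal responses. The 428 genes with a negative interaction in both fits (blue) lie under the line and the 256 with a positive one (orange) above it, and many blue points on the right rose in both genotypes.

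The edited gene, Trem2 (chromosome 17, 48346401 to 48354147 in GRCm38, ENSMUSG00000023992), was lower with tau and lower in R47H/+, and whether tau lowered it by an unequal fold depends on the length-shifted libraries. It measured 945, 935 and 1894 CPM in Trem2+/+ without tau, 469, 481 and 375 CPM in Trem2+/+ with tau, 451, 454 and 489 CPM in R47H/+ without tau and 128, 243 and 155 CPM in R47H/+ with tau. Every R47H/+ library without tau lay under every Trem2+/+ library without tau, and every R47H/+ library with tau under every Trem2+/+ library with tau; the highest value of all was the length-shifted Trem2+/+ replicate 3. The tau response was -1.51 in Trem2+/+ and -1.41 in R47H/+, and the interaction was 0.10 ± 0.35 (SE; adjusted p = 0.861) with all libraries but -0.63 (adjusted p = 0.00326) without both. Because the edited allele carries human sequence, counts over the mouse gene may not hold all of its transcripts.

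Of 29 tested genes that signal with TREM2 or sit beside it, 1 had a positive and 2 a negative interaction (3 and 8 without both), and the median was -0.07. Of all genes tested, 2.05% were positive and 3.32% negative, and 4.54% and 7.39% without both. With few members called with all libraries, the 3 genes are described one by one and not as a group. The negative genes were Treml2, a receptor of the same gene cluster, and Ms4a4a, a membrane protein known to modulate soluble TREM2; the positive gene was Lat2, an adaptor downstream of receptors with immune tyrosine motifs. Treml2 measured 5.98, 5.73 and 5.2 CPM without and 41.7, 41.5 and 38.9 CPM with tau in Trem2+/+, and 40.9, 40.7 and 38.5 CPM without and 94.7, 99.1 and 102 CPM with tau in R47H/+. The untreated R47H/+ libraries lay at the level that Trem2+/+ reached with tau, and the R47H/+ libraries with tau were the highest. For Treml2 the interaction was -1.55 ± 0.14 (SE; adjusted p = 6.54e-06), and -1.50 without both length-shifted libraries. Ms4a4a measured 33.6, 33.9 and 24.6 CPM without and 58.4, 49.3 and 52.2 CPM with tau in Trem2+/+, and 118, 123 and 128 CPM without and 51.5, 26.9 and 46.6 CPM with tau in R47H/+. It rose with tau in Trem2+/+ and fell in R47H/+, from the highest group to the range of the Trem2+/+ libraries. For Ms4a4a the interaction was -2.36 ± 0.27 (SE; adjusted p = 6.55e-05), and -1.99 without both length-shifted libraries. For Lat2 the interaction was 1.03 (adjusted p = 0.00185; 0.83 without both), with a rise in R47H/+ (0.77) and -0.26, not called, in Trem2+/+.

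Interferon-stimulated genes, the antiviral genes induced by type I interferon, rose with tau in both genotypes, from a higher level and by a smaller fold in R47H/+. Of 54 tested, 45 had a negative and 0 a positive interaction, against 3.32% and 2.05% of all genes, and 53 and 0 without both libraries, with medians of -1.46 and -1.40. Tau raised 54 of the 54 in Trem2+/+ (median 2.35) and 43 in R47H/+ (median 1.06), and R47H/+ was higher than Trem2+/+ for 52 without tau (median 1.89) and 26 with tau (median 0.51). Without both tau raised 54 and 52 (medians 2.31 and 0.91), and R47H/+ was higher for 54 without tau (median 1.92) and 46 with tau (median 0.46). With all libraries the 9 members with no call included Isg15, Bst2 and Ifitm3, whereas 53 of the 54 members were called without both. Taken per library as the median of the members against the Trem2+/+ mean, the list stood at -0.13 to 0.14 in Trem2+/+ without tau, 1.87 to 1.99 in R47H/+ without tau, 2.32 to 2.52 in Trem2+/+ with tau and 2.76 to 2.92 in R47H/+ with tau, with no overlap between groups.

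Irf7 (ENSMUSG00000025498, chromosome 7, 141262706 to 141266481), the transcription factor that amplifies type I interferon production, shows this order on its own values. It measured 105, 125 and 122 CPM in Trem2+/+ without tau, 2068, 2300.0 and 1784 CPM in Trem2+/+ with tau, 1410.2, 1210.5 and 1194 CPM in R47H/+ without tau and 3221, 4493 and 3788 CPM in R47H/+ with tau. The 4 groups did not overlap, and R47H/+ without tau lay close below Trem2+/+ with tau. Tau raised it by 4.13 log2 in Trem2+/+ and 1.59 in R47H/+. For Irf7 the interaction was -2.54 ± 0.19 (SE; adjusted p = 9.77e-07), and -2.70 without both length-shifted libraries; in CPM the mean gain was 1934 in Trem2+/+ and 2563 in R47H/+, the opposite order.

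Ifi44, an interferon-induced protein, measured 2.91, 3.62 and 3.91 CPM without and 102, 121 and 122 CPM with tau in Trem2+/+, and 70.6, 65.4 and 55 CPM without and 245, 198 and 201 CPM with tau in R47H/+. Here too each group held its own range and R47H/+ with tau was the highest. For Ifi44 the interaction was -3.29 ± 0.21 (SE; adjusted p = 7.58e-07), and -3.32 without both length-shifted libraries. Oas3, a sensor of double-stranded RNA that activates RNase L, measured 82.3, 89.5 and 36.9 CPM without and 1078, 1111 and 988 CPM with tau in Trem2+/+, and 744, 688 and 636 CPM without and 1286, 905 and 1346 CPM with tau in R47H/+. R47H/+ was above Trem2+/+ by 3.31 on the log2 scale without tau. With tau the genotypes overlapped through the length-shifted R47H/+ replicate 2, and the difference was 0.16, not called, with all libraries and 0.31 (adjusted p = 0.00362) without both. For Oas3 the interaction was -3.15 ± 0.33 (SE; adjusted p = 2.68e-05), and -2.69 without both length-shifted libraries; Oas3 also gained less in CPM in R47H/+ (489.8) than in Trem2+/+ (989). Ifit2, which binds viral RNA, had an interaction of -2.50 (adjusted p = 9.77e-07; -2.40 without both), and its relative Ifit3 of -2.07 (adjusted p = 0.000142; -2.49 without both). Over the 45 called members the gain in CPM was larger in R47H/+ for 21 and larger in Trem2+/+ for 24.

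Other genes were named for the size of their negative interaction. Apol9b, an apolipoprotein L gene, had an interaction of -3.49 (adjusted p = 1.15e-05; -3.99 without both), Ms4a4c -3.11 (adjusted p = 4.52e-05; -3.49 without both), Ifi208, of the PYHIN family of DNA sensors, -3.06 (adjusted p = 8.31e-07; -2.97 without both), Ly6a, a surface antigen, -3.20 (adjusted p = 0.000177; -4.09 without both) and Trim30c -3.10 (adjusted p = 9.06e-05; -2.57 without both). Apol9a and Csprs had -4.14 (adjusted p = 0.00389, and -3.93 without both) and -3.50 (adjusted p = 0.000229, and -3.21 without both). They rest on 4 and 9 counts in all 3 Trem2+/+ libraries without tau, so their fitted folds depend on the prior count. Apol9b and Ly6a had 22 and 58 counts in the same libraries, so that their folds are less precise as well. Apol9a and Apol9b, Csprs and Trim30c have near-identical copies whose reads could be split or shared in counting, and their values are uncertain.

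The guanylate-binding proteins and immunity-related GTPases, which attack the vacuoles of intracellular pathogens and respond to interferon gamma as well as to type I interferon, also rose by a smaller fold in R47H/+. Of 19 tested, 17 were negative and 0 positive both with all libraries and without both, with medians of -1.92 and -1.91, and tau raised 19 in Trem2+/+ (median 3.71) and 18 in R47H/+ (median 1.95), and 19 in each without both (medians 3.53 and 2.02). Gbp4 (ENSMUSG00000079363, chromosome 5, 105115767 to 105139586) had the largest interaction of the list. It measured 0.676, 1.42 and 0.675 CPM in Trem2+/+ without tau, 60.8, 69.6 and 73.5 CPM in Trem2+/+ with tau, 28.6, 26.8 and 27.6 CPM in R47H/+ without tau and 168, 129 and 144 CPM in R47H/+ with tau. The gene was lowest in Trem2+/+ without tau (54 counts in 3 libraries), higher in every R47H/+ library without tau, and highest in R47H/+ with tau, with no overlap between groups. For Gbp4 the interaction was -3.74 ± 0.28 (SE; adjusted p = 9.77e-07), and -3.48 without both length-shifted libraries. Iigp1, an immunity-related GTPase, measured 6.08, 9.17 and 6.01 CPM without and 238, 270.0 and 290.1 CPM with tau in Trem2+/+, and 142, 115 and 112 CPM without and 532, 419 and 471 CPM with tau in R47H/+. It had the same order of groups. For Iigp1 the interaction was -3.28 ± 0.22 (SE; adjusted p = 8.31e-07), and -3.08 without both length-shifted libraries. For Gbp8 the interaction was -2.51 (adjusted p = 9.77e-07; -2.48 without both) and for Gbp7 -2.16 (adjusted p = 0.00191; -1.64 without both). In CPM 13 of the 17 called members gained more in R47H/+, Gbp4 by 119.5 against 67 and Iigp1 by 351 against 259. Guanylate-binding protein genes are similar in sequence and lie in clusters, so that counts of single members are less certain than those of the family.

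**Figure D2:**
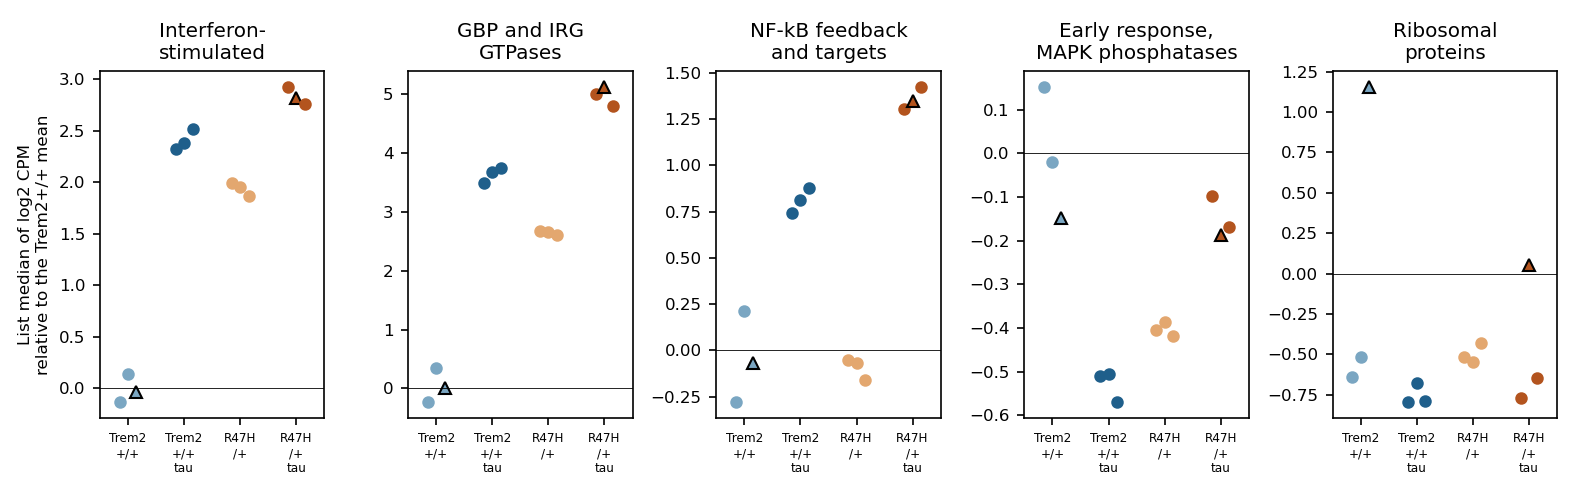
Median over the members of 5 gene lists of the log2 CPM in each library relative to the mean of the 3 Trem2+/+ libraries without tau; triangles with a black edge are the 2 length-shifted libraries. Interferon-stimulated genes lie at -0.13 to 0.14 in Trem2+/+ and 1.87 to 1.99 in R47H/+ before tau, and the ribosomal protein panel is set by the triangle at 1.15.

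Promoters are printed for 6 genes of these kinds, to show the letters of the interferon-stimulated response element. The sequences are RefSeq promoters of build GRCm38.p6, from 250 bases before to 50 after the annotated start; each line gives 25 bases on both sides of a match to GAAANNGAAA on either strand, which is in capitals, the one nearest the start where there are several. The pattern occurs in 3.44% of the 32851 promoters in the table.
Oas3, chr5:120777700-120777759, minus strand: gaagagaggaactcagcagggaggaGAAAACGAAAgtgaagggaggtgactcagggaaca
Apol9b, chr15:77729016-77729075, plus strand: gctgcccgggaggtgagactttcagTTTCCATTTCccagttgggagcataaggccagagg
Ifi208, chr1:173673582-173673641, plus strand: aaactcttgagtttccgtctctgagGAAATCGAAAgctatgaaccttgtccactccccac
Ifit3, chr19:34583382-34583441, plus strand: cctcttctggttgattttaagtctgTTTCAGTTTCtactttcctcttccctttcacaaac
Gbp7, chr3:142530258-142530317, plus strand: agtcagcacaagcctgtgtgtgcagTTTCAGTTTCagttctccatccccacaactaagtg
Cxcl10, chr5:92349068-92349127, minus strand: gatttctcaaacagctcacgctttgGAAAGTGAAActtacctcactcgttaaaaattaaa
The first base of the match lies at -75 from the start in Oas3, -31 in Apol9b, -58 in Ifi208, -122 in Ifit3, -53 in Gbp7 and -213 in Cxcl10. Cxcl10 is shown because it holds the same pattern and its interaction was not called. A match is a description of the letters and no evidence of binding. Of the genes tested that the table holds, 4.07% had the pattern. It holds 41 of the 54 interferon-stimulated and 11 of the 19 GTPase genes, of which 20 and 10 had the pattern; as under 80% of either list is in the table, a check of the pattern by list is void and the counts are given for these genes alone. The genes printed were picked among those with a match.

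Antigen presentation by MHC class I had negative interactions in part of its genes. Of 23 tested genes of class I and peptide loading, 8 were negative and 0 positive (median -0.42), and 19 and 0 without both (median -0.79). Tap1, a subunit of the peptide transporter, measured 95.6, 119 and 93 CPM without and 650.1, 711 and 556 CPM with tau in Trem2+/+, and 424, 393 and 403 CPM without and 806, 898 and 884 CPM with tau in R47H/+. The groups did not overlap. For Tap1 the interaction was -1.55 ± 0.16 (SE; adjusted p = 2.42e-05), and -1.52 without both length-shifted libraries. The non-classical class I genes H2-Q6 and H2-T24 had interactions of -2.33 (adjusted p = 8.6e-05; -2.67 without both) and -1.81 (adjusted p = 0.000635; -1.44 without both); H2-Q6 has near-identical neighbours in the Q region and is uncertain. Among 15 class II and costimulation genes 3 were positive and 2 negative (2 and 6 without both). Cd274, the inhibitory ligand PD-L1, was negative at -1.14 (adjusted p = 0.0179; -0.74 without both), while Cd40, a costimulatory receptor, and Tnfsf9, a costimulatory ligand, were positive at 1.31 (adjusted p = 0.0155; 0.95 without both) and 2.11 (adjusted p = 0.0108; 1.76 without both). In a fit of the 12 libraries alone Cd274 and Cd40 had adjusted p of 0.0971 and 0.0503, and without R47H replicate 2 that of Cd40 was 0.053.

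Cytokines and chemokines went both ways. Of 29 tested, 6 were positive and 2 negative (7 and 6 without both), with a median of 0.42 that was 0.01 without both. Tnf (ENSMUSG00000024401, chromosome 17, 35199381 to 35202007), a cytokine that drives inflammation, measured 22.2, 23.4 and 35.8 CPM in Trem2+/+ without tau, 37.9, 41.8 and 37.8 CPM in Trem2+/+ with tau, 14, 10.9 and 13.3 CPM in R47H/+ without tau and 67.1, 81.8 and 72.4 CPM in R47H/+ with tau. It was lowest in R47H/+ without tau and highest in R47H/+ with tau, and these groups overlapped no other. Tau raised it by 0.53 in Trem2+/+ and 2.53 in R47H/+. For Tnf the interaction was 2.0 ± 0.23 (SE; adjusted p = 6.51e-05), and 1.67 without both length-shifted libraries. Il1rn, the antagonist of the interleukin 1 receptor, measured 23.4, 20 and 25.3 CPM without and 78.3, 94.3 and 96.9 CPM with tau in Trem2+/+, and 44.3, 35.8 and 31 CPM without and 403, 435 and 390.1 CPM with tau in R47H/+. The 4 groups did not overlap and R47H/+ with tau was the highest. For Il1rn the interaction was 1.49 ± 0.20 (SE; adjusted p = 0.000293), and 1.37 without both length-shifted libraries.

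Cxcl2, a chemokine for neutrophils, had an interaction of 2.82 (adjusted p = 0.00586; 2.09 without both), the largest positive value by the rule of size, at low levels. It measured 4.94, 5.87 and 14.7 CPM without and 5.02, 4.12 and 5.34 CPM with tau in Trem2+/+, and 2.11, 1.87 and 2.96 CPM without and 9.25, 10.6 and 8.4 CPM with tau in R47H/+. It rose in R47H/+ by 2.02 and was not called in Trem2+/+ (-0.80), and every R47H/+ library with tau lay above every R47H/+ library without it. Il1b, the cytokine interleukin 1 beta, measured 33.6, 47.1 and 86.6 CPM without and 27.3, 29.4 and 40.7 CPM with tau in Trem2+/+, and 42.4, 38.4 and 38.2 CPM without and 64.1, 89.2 and 64.6 CPM with tau in R47H/+. The length-shifted Trem2+/+ replicate 3 was nearly as high as the highest library with tau, and the call at 1.65 (adjusted p = 0.0438; 1.02 without both) was lost in 8 of the 12 fits that left out 1 library, with an adjusted p of at most 0.119. Tnfsf10, the death ligand TRAIL and an interferon target, was negative at -2.40 (adjusted p = 0.000385; -1.96 without both).

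Of the known genes that the rule named, Ccl5, Cxcl10, Ccl2 and Nos2 were not called with all libraries. Ccl5, which attracts T cells and is induced by interferon and NF-kB, measured 3.74, 9.12 and 20 CPM without and 1161, 1348 and 1321 CPM with tau in Trem2+/+, and 103, 73.9 and 63.3 CPM without and 2786, 4234 and 2408 CPM with tau in R47H/+. It rose in both genotypes, by 6.88 and 5.30, and the interaction was -1.58 ± 0.53 (SE; adjusted p = 0.105) with all libraries but -2.59 (adjusted p = 1.2e-06) without both. It was called in 7 of the 22 alternatives, among them -2.28 (adjusted p = 0.000409) without Trem2+/+ replicate 3 alone. Cxcl10, which attracts T cells as well, measured 4.16, 12.6 and 11.6 CPM without and 138, 169 and 178 CPM with tau in Trem2+/+, and 29.9, 20.4 and 28.7 CPM without and 665, 731 and 586 CPM with tau in R47H/+. Its fold was large in both genotypes and the interaction of 0.55 had an interval of -0.37 to 1.48 (95%; adjusted p = 0.41), and was 0.33 (adjusted p = 0.667) without both. For Ccl2, which attracts monocytes, the interaction was 0.08 (interval -0.66 to 0.82) with all libraries and -0.30 without both, neither called. Nos2, the inducible nitric oxide synthase, had 7 counts in all Trem2+/+ libraries without tau, so its -1.23 (adjusted p = 0.402; -0.88 with adjusted p = 0.711 without both) is not precise; with tau the Trem2+/+ libraries had 7.65, 13.3 and 13.2 CPM, and those of R47H/+ 70.7, 52.5 and 75.4 CPM. Missing the threshold does not show that the responses were alike.

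NF-kB target and feedback genes had the opposite sign, with larger tau folds in R47H/+. Of 35 tested, 10 were positive and 0 negative (17 and 1 without both), with medians of 0.61 and 0.45. Tau raised 22 in Trem2+/+ (median 0.72) and 29 in R47H/+ (median 1.60), and R47H/+ was lower than Trem2+/+ for 8 and higher for 3 without tau, but lower for 1 and higher for 13 with tau. Without both tau raised 26 and 30 (medians 0.93 and 1.51), and R47H/+ was lower for 12 and higher for 8 without tau, and lower for 2 and higher for 22 with tau. The positive genes included the inhibitors of NF-kB Nfkbia, Nfkbie, Tnfaip3 and Tnip3, the subunit Relb and the signalling adaptor Traf1. Nfkbie (ENSMUSG00000023947, chromosome 17, 45555703 to 45563169), the inhibitor IkB epsilon, measured 25.4, 39.3 and 29.4 CPM in Trem2+/+ without tau, 37.9, 40.5 and 46 CPM in Trem2+/+ with tau, 16.7, 17.2 and 17.9 CPM in R47H/+ without tau and 72.7, 76.7 and 76.7 CPM in R47H/+ with tau. R47H/+ had the lowest libraries before tau and the highest after it, while in Trem2+/+ the libraries without and with tau overlapped. For Nfkbie the interaction was 1.73 ± 0.24 (SE; adjusted p = 0.000376), and 1.76 without both length-shifted libraries. For Nfkbia, the inhibitor IkB alpha, the interaction was 1.11 (adjusted p = 0.00402; 1.07 without both), and for Tnip3, which restrains NF-kB with the ubiquitin editor encoded by Tnfaip3, 1.98 (adjusted p = 0.00307; 1.87 without both). With an offset for gene length taken against the group median the adjusted p of Nfkbia was 0.052.

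Clec4e, the receptor Mincle that senses glycolipids and dying cells, measured 30.1, 101 and 91.7 CPM without and 194, 233 and 314 CPM with tau in Trem2+/+, and 34.7, 24.7 and 27 CPM without and 523, 553 and 479.7 CPM with tau in R47H/+. The 3 Trem2+/+ libraries without tau were spread widely, with replicate 1 near the R47H/+ level. For Clec4e the interaction was 2.43 ± 0.51 (SE; adjusted p = 0.00924), and 2.21 without both length-shifted libraries. Sod2, the mitochondrial superoxide dismutase, had 1.41 (adjusted p = 0.0114; 1.00 without both), with an adjusted p of 0.0578 in the fit of 12 libraries alone. Bcl2a1a, which protects from cell death, had 2.49 (adjusted p = 0.0185; 1.11 without both); it has near-identical copies and lost the call in 4 of the 12 fits that left out 1 library and in the 12 libraries alone (adjusted p at most 0.0925).

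NF-kB matches are shown for 4 promoters of positive genes from the same table, picked among those with a match, for the letters that the NF-kB family is known to bind; the pattern is the standard NF-kB motif on either strand, capitals mark it, and 4.51% of all promoters in the table hold it.
Nfkbie, chr17:45555569-45555628, plus strand: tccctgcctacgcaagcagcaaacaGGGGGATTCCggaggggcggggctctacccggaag
Nfkbia, chr12:55492642-55492701, minus strand: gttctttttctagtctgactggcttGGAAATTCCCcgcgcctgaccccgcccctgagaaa
Cxcl2, chr5:90903778-90903837, plus strand: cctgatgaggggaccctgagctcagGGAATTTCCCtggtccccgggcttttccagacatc
Tnip3, chr6:65590319-65590378, plus strand: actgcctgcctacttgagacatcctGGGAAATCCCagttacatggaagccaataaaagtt
The match begins at -106 in Nfkbie, -29 in Nfkbia, -96 in Cxcl2 and -54 in Tnip3. These 4 genes rose with tau in R47H/+ by 2.13, 1.61, 2.02 and 2.88 on the log2 scale in this order. The table holds 29 of the 35 genes of the NF-kB list, of which 9 had the motif (31%), against 6.26% of the genes tested that the table holds.

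Early response genes and MAPK phosphatases mostly fell with tau in Trem2+/+ and mostly rose in R47H/+ where they were called. Of 33 tested, 13 were positive and 0 negative (17 and 2 without both), with medians of 0.82 and 0.81. In Trem2+/+ tau lowered 17 and raised 6 of them (median -0.58), and in R47H/+ it raised 14 and lowered 5 (median 0.36); without tau R47H/+ was lower for 11 and higher for 2. Without both tau lowered 19 and raised 6 in Trem2+/+ (median -0.62) and raised 17 and lowered 5 in R47H/+ (median 0.30), and R47H/+ was lower for 17 and higher for 3 without tau. The positive members were the phosphatases Dusp1, Dusp2, Dusp5 and Dusp6, the zinc finger factors Egr1, Egr2 and Egr3, the AP-1 factors Fos, Junb and Jund, and Atf3, Maff and Myc.

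Dusp5 (ENSMUSG00000034765, chromosome 19, 53529109 to 53542431), a nuclear phosphatase of ERK, measured 6.03, 5.5 and 8.17 CPM in Trem2+/+ without tau, 2.82, 2.19 and 2.67 CPM in Trem2+/+ with tau, 3.7, 3.63 and 2.62 CPM in R47H/+ without tau and 8.76, 9.81 and 7.49 CPM in R47H/+ with tau. It fell with tau in Trem2+/+ and rose in R47H/+ into the range of untreated Trem2+/+ cells and above. For Dusp5 the interaction was 2.74 ± 0.28 (SE; adjusted p = 1.96e-05), and 2.45 without both length-shifted libraries. Dusp1, which acts on p38 and JNK, measured 16.9, 15.1 and 13.7 CPM without and 11.6, 10.4 and 11.4 CPM with tau in Trem2+/+, and 10.1, 9.24 and 8.77 CPM without and 27.1, 26.6 and 28 CPM with tau in R47H/+. It fell in Trem2+/+ and rose in R47H/+, where the libraries with tau lay above all others. For Dusp1 the interaction was 1.99 ± 0.21 (SE; adjusted p = 2.42e-05), and 2.08 without both length-shifted libraries. Fos measured 58.8, 54.7 and 58.7 CPM without and 24.6, 21.7 and 22.8 CPM with tau in Trem2+/+, and 23.9, 19.9 and 19.8 CPM without and 25.2, 29 and 28.3 CPM with tau in R47H/+. Untreated Trem2+/+ libraries stood above all others and the remaining groups lay close together. For Fos the interaction was 1.69 ± 0.16 (SE; adjusted p = 1.22e-05), and 1.64 without both length-shifted libraries. Egr2, a factor induced with Fos, measured 66.7, 49.6 and 51.6 CPM without and 7.22, 7.94 and 7.22 CPM with tau in Trem2+/+, and 11.4, 11.3 and 11.1 CPM without and 6.88, 6.6 and 7.49 CPM with tau in R47H/+. It fell in both genotypes, from a level in untreated Trem2+/+ above all other libraries, and the positive interaction of 2.22 (adjusted p = 7.64e-05; 2.31 without both) is a smaller fall in R47H/+. Atf3 measured 304, 258 and 271 CPM without and 177, 197 and 181 CPM with tau in Trem2+/+, and 246, 231 and 223 CPM without and 285, 337 and 288 CPM with tau in R47H/+. It fell in Trem2+/+ and rose in R47H/+. For Atf3 the interaction was 0.97 ± 0.14 (SE; adjusted p = 0.000635), and 0.90 without both length-shifted libraries.

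Promoter matches are printed for the 4 of these genes that have one, for the serum response element core (CArG box) and the cyclic AMP response element (CRE), through which growth factor, calcium and MAPK signals are known to act. The CArG box was searched by its standard motif and the CRE as TGACGTCA, both on either strand; capitals mark the match, and 1.63% and 1.79% of all promoters in the table hold them.
Dusp5, chr19:53529048-53529107, plus strand: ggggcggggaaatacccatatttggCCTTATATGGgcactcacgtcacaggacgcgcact
Egr2, chr10:67537469-67537528, plus strand: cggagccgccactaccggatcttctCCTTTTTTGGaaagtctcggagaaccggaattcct
Dusp1, chr17:26508583-26508640, minus strand: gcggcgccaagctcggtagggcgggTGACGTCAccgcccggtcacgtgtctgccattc
Maff, chr15:79347466-79347523, plus strand: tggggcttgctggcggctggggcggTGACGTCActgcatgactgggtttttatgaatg
The CArG match begins at -72 in Dusp5 and -72 in Egr2, and the CRE match at -143 in Dusp1 and -29 in Maff. Of these, Dusp5, Dusp1 and Maff responded to tau in opposite directions in the 2 genotypes, and Egr2 fell in both. The table holds 25 of the 33 genes of this list, of which 2 had the CArG box, 2 the CRE and 5 the NF-kB motif, so that most had neither of the elements printed; among the genes tested that the table holds, 1.54%, 3.64% and 6.26% had them. As under 80% of the list is in the table, a check by list is void.

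**Figure D3:**
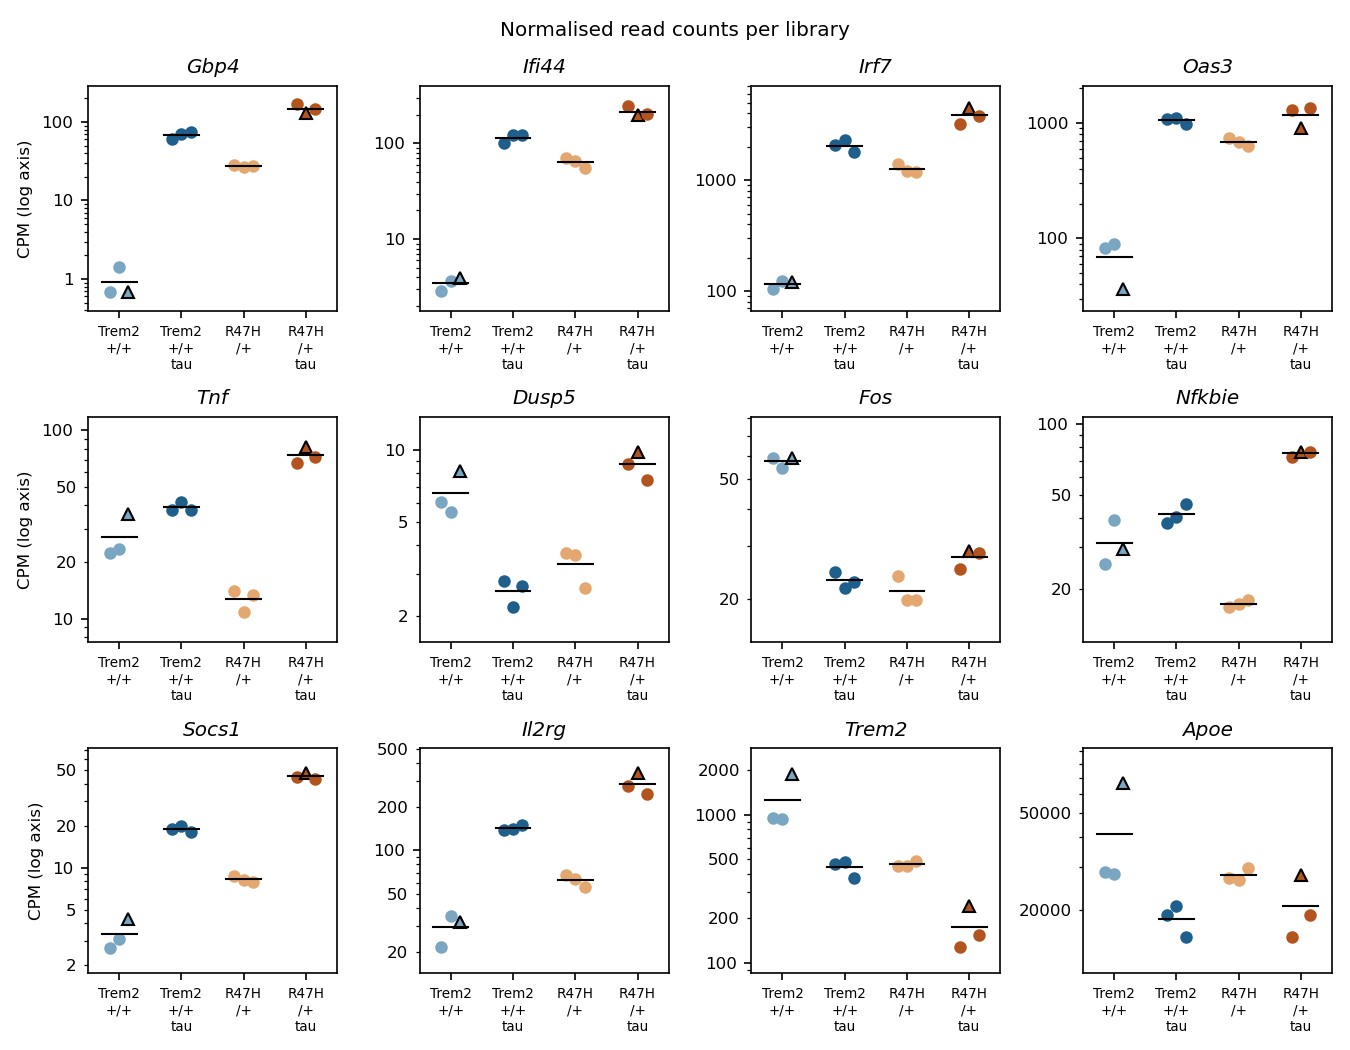
CPM on a log axis in each of the 12 libraries for 12 genes; bars are group means and triangles with a black edge are the 2 length-shifted libraries. Gbp4, Ifi44, Irf7 and Oas3 start higher in R47H/+, Tnf and Nfkbie start lower and end higher there, Dusp5 moves in opposite directions, and the high Trem2+/+ triangle sets the group mean of Trem2 and Apoe.

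Of the genes called by both fits, 30 fell with tau in Trem2+/+ and rose in R47H/+ and 24 did the reverse, with all libraries; 46 of these met the level and symbol filter for named genes. By size, the rule named Dusp5, Maff, Hilpda, Ms4a4a, Nes and Stap1. Maff, a small Maf factor, measured 6.39, 7.61 and 7.15 CPM without and 2.58, 1.73 and 2.5 CPM with tau in Trem2+/+, and 2.67, 2.28 and 3.63 CPM without and 4.62, 6.37 and 5.43 CPM with tau in R47H/+. It fell in Trem2+/+ and rose in R47H/+, where no library with tau reached the untreated Trem2+/+ libraries. For Maff the interaction was 2.57 ± 0.30 (SE; adjusted p = 6.29e-05), and 2.44 without both length-shifted libraries. Nes, the intermediate filament nestin, measured 45.5, 29.5 and 31.5 CPM without and 16.7, 17.4 and 19 CPM with tau in Trem2+/+, and 18, 14.7 and 14.3 CPM without and 33, 33.7 and 41.9 CPM with tau in R47H/+. Untreated Trem2+/+ and R47H/+ with tau overlapped at a high level and the other groups at a low one. For Nes the interaction was 2.21 ± 0.29 (SE; adjusted p = 0.00024), and 2.33 without both length-shifted libraries. Stap1, an adaptor protein of myeloid cells, measured 33.8, 26.7 and 33.4 CPM without and 12.1, 12.2 and 13.8 CPM with tau in Trem2+/+, and 21.5, 17.4 and 18.7 CPM without and 31.1, 38.1 and 36.3 CPM with tau in R47H/+. Untreated Trem2+/+ and R47H/+ with tau again overlapped above the other groups. For Stap1 the interaction was 2.17 ± 0.24 (SE; adjusted p = 3.7e-05), and 2.06 without both length-shifted libraries. Hilpda, which blocks lipolysis at lipid droplets, had 2.40 (adjusted p = 0.00253; 1.58 without both); its Trem2+/+ libraries without tau were 7.8, 8.21 and 21.2 CPM, with the length-shifted replicate far above the others.

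Other genes were named for the size of their positive interaction. Ch25h, the enzyme that makes an oxysterol with antiviral action, measured 2.23, 1.88 and 2.97 CPM without and 9.8, 12.8 and 11.4 CPM with tau in Trem2+/+, and 2.98, 1.29 and 2.9 CPM without and 64.4, 72.4 and 51.7 CPM with tau in R47H/+. Both genotypes overlapped without tau and both rose, R47H/+ to a level above every Trem2+/+ library. For Ch25h the interaction was 2.43 ± 0.37 (SE; adjusted p = 0.00073), and 2.12 without both length-shifted libraries. Adora2a, an adenosine receptor that dampens inflammation, had 2.79 (adjusted p = 0.000765, and 2.44 without both), on 24 counts in R47H/+ without tau. Marcksl1, a regulator of actin, had 2.23 (adjusted p = 0.00458, and 1.74 without both). Eno2, a glycolytic enolase, had 2.47 (adjusted p = 0.000143; 2.66 without both) and Pdpn, the surface protein podoplanin, 2.23 (adjusted p = 0.00453; 1.70 without both). Dmpk, a kinase, had 2.39 (adjusted p = 0.0236; 2.84 without both) at low levels, and lost the call in 5 of the 12 fits that left out 1 library and in the 12 libraries alone (adjusted p at most 0.102).

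Homeostatic microglial genes, which mark resting cells in the brain, leaned to the negative side. Of 28 tested, 6 were negative and 1 positive (12 and 1 without both), with medians of -0.49 and -0.42. Over all genes 3.32% were negative and 2.05% positive (7.39% and 4.54% without both), so the positive count is not above the background. P2ry12, a purinergic receptor that guides processes, measured 7.64, 9.17 and 8.1 CPM without and 26.3, 26.4 and 31.2 CPM with tau in Trem2+/+, and 22.2, 24.4 and 20.7 CPM without and 43.8, 31.9 and 31.8 CPM with tau in R47H/+. It was lowest in untreated Trem2+/+, and untreated R47H/+ lay just under Trem2+/+ with tau. For P2ry12 the interaction was -1.07 ± 0.21 (SE; adjusted p = 0.00533), and -0.97 without both length-shifted libraries. Gas6, a ligand of the receptors Axl and Mertk, measured 774, 742 and 699 CPM without and 353, 322 and 294 CPM with tau in Trem2+/+, and 881, 889 and 923 CPM without and 209, 244 and 230.4 CPM with tau in R47H/+. It fell in both genotypes and further in R47H/+. For Gas6 the interaction was -0.79 ± 0.14 (SE; adjusted p = 0.00209), and -0.80 without both length-shifted libraries. Cx3cr1, the fractalkine receptor, had -0.91 (adjusted p = 0.0343; -0.61 without both), a call that was lost in 8 of the 12 fits that left out 1 library and in the 12 libraries alone (adjusted p at most 0.097). Rhob, a small GTPase, was the positive member at 0.79 (adjusted p = 0.00752; 0.61 without both), with an adjusted p of 0.0511 in the 12 libraries alone.

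Genes of disease-associated microglia, a state that depends on TREM2 in mouse models, had calls in both directions. Of 31 tested, 4 were positive (Ccl6, Ch25h, Lgals3 and Spp1) and 3 negative (Axl, Csf1 and Dkk2), and 7 and 8 without both; the median of 0.34 became -0.03 without both. Axl, a receptor for Gas6 on dying cells, measured 527, 522 and 289 CPM without and 1503, 1541 and 1301 CPM with tau in Trem2+/+, and 1101, 1059 and 1048 CPM without and 1516, 1220.5 and 1579 CPM with tau in R47H/+. It rose in Trem2+/+ into the range of R47H/+ with tau, and untreated R47H/+ lay between untreated Trem2+/+ and these. For Axl the interaction was -1.27 ± 0.25 (SE; adjusted p = 0.00507), and -0.93 without both length-shifted libraries. Dkk2, a modulator of Wnt signalling, fell in both genotypes and further in R47H/+, with -1.37 (adjusted p = 0.00203; -1.21 without both). Apoe, the lipoprotein that also binds TREM2, was not called: its interaction was 0.74 (interval -0.09 to 1.57; adjusted p = 0.251) with all libraries and -0.07 without both, and it measured 28523, 27994 and 66330.0 CPM in Trem2+/+ without tau, where the length-shifted replicate stood apart.

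Among 29 complement, Fc and scavenger receptor genes 5 were positive and 3 negative (5 and 12 without both). The complement component C4b was negative at -1.76 (adjusted p = 0.000145; -1.57 without both) and factor B, encoded by Cfb, at -3.06 (adjusted p = 0.00179; -2.43 without both), the latter on 49 counts in Trem2+/+ without tau; C5ar1, the receptor for the complement peptide C5a, was positive at 0.71 (adjusted p = 0.00263; 0.78 without both), with an adjusted p of 0.0574 when no filter on low counts was applied. Among 25 genes of matrix and alternative activation 6 were positive and 1 negative (9 and 6 without both). Tgm2, a transglutaminase, measured 30.4, 41.1 and 19.7 CPM without and 39.6, 44.8 and 36.5 CPM with tau in Trem2+/+, and 8.64, 7.66 and 7.48 CPM without and 39.6, 41.6 and 45.1 CPM with tau in R47H/+. It was low in untreated R47H/+ alone and the other 3 groups overlapped. For Tgm2 the interaction was 2.0 ± 0.30 (SE; adjusted p = 0.000614), and 2.24 without both length-shifted libraries. Ccr2, the receptor for Ccl2, measured 11.2, 10.4 and 8.98 CPM without and 22.4, 21.6 and 27.3 CPM with tau in Trem2+/+, and 25.6, 27.4 and 21.6 CPM without and 20, 17.8 and 12.9 CPM with tau in R47H/+. It rose in Trem2+/+ and fell in R47H/+, where untreated cells were already at the high level. For Ccr2 the interaction was -1.78 ± 0.28 (SE; adjusted p = 0.000852), and -1.74 without both length-shifted libraries.

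**Figure D4:**
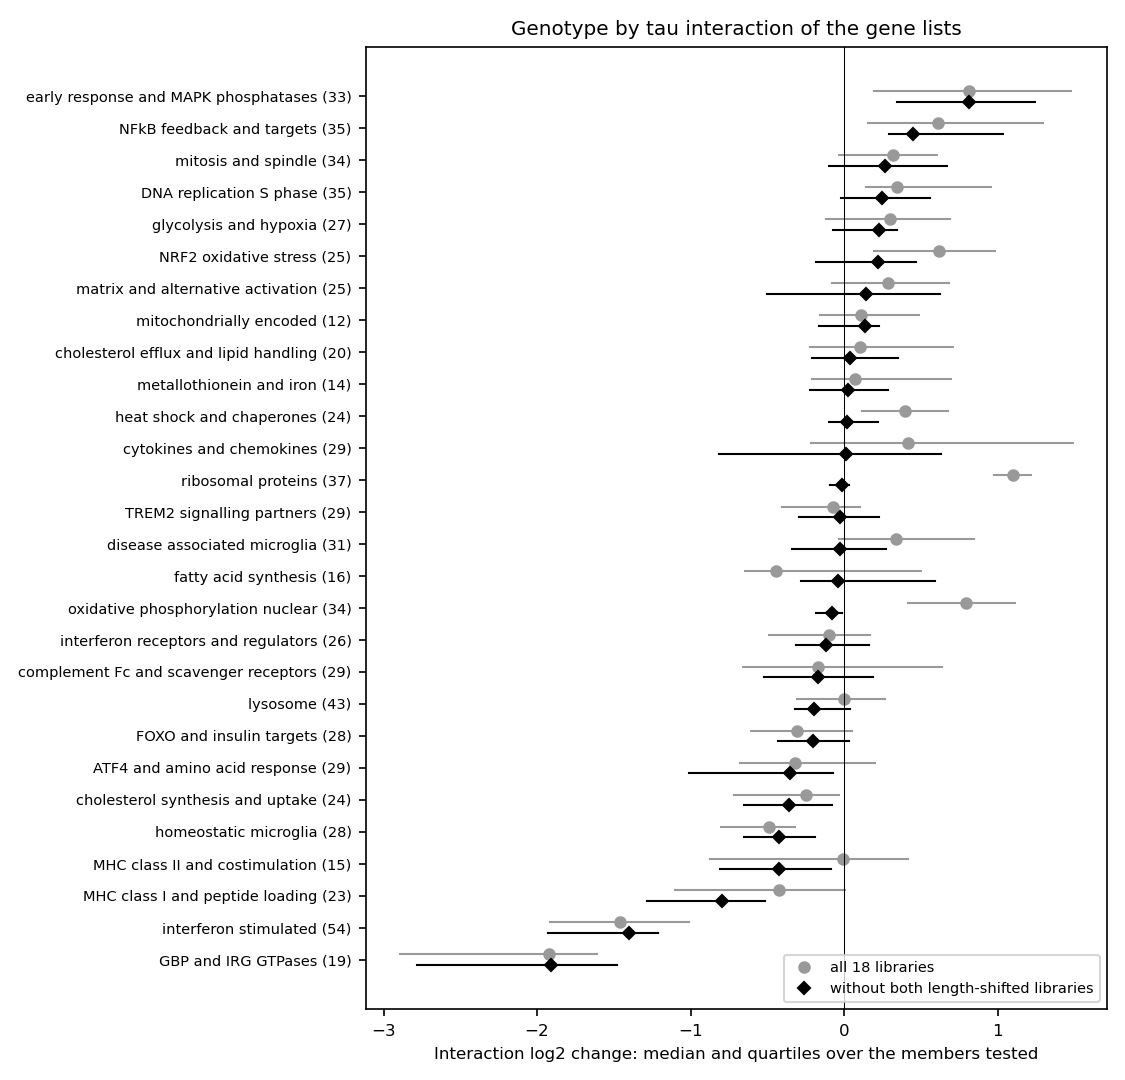
Median (symbol) and quartiles (line) of the interaction log2 change over the tested members of each gene list, whose number is in parentheses, with all 18 libraries in the fit (grey circles) and without both length-shifted libraries (black diamonds). Interferon-stimulated genes (-1.46 and -1.40) and early response genes (0.82 and 0.81) keep their place, whereas ribosomal proteins move from 1.10 to -0.01.

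Metabolic groups had calls in both directions, in most of them at a higher share than the 5.37% of all genes. In glycolysis and the hypoxia response 5 of 27 were positive and 1 negative (7 and 2 without both), and without tau R47H/+ was lower for 16 and higher for 0 (16 and 3 without both). Slc2a1, the main glucose transporter, measured 73.5, 73.2 and 75.9 CPM without and 56, 61.6 and 56.8 CPM with tau in Trem2+/+, and 40.7, 37.8 and 39.7 CPM without and 59.3, 68 and 69.9 CPM with tau in R47H/+. It was lowest in untreated R47H/+, with no overlap. For Slc2a1 the interaction was 1.09 ± 0.13 (SE; adjusted p = 0.000119), and 1.05 without both length-shifted libraries. Slc16a3, which exports lactate, had 1.07 (adjusted p = 0.00082; 1.02 without both), and Pfkfb4, which sets a regulator of glycolysis, -0.83 (adjusted p = 0.00684; -0.64 without both), with an adjusted p of 0.0538 for Pfkfb4 in the 12 libraries alone. In the NRF2 oxidative stress response 4 of 25 were positive and 0 negative (8 and 1 without both), with R47H/+ lower for 17 without tau (18 without both); for Srxn1, which repairs oxidised peroxiredoxins, the interaction was 1.13 (adjusted p = 0.000456; 1.21 without both). Of 29 genes of the ATF4 and amino acid response 3 were positive and 4 negative (4 and 11 without both), among them the amino acid transporters Slc7a5 at -1.85 (adjusted p = 0.000637; -1.57 without both) and Slc1a4 at -1.73 (adjusted p = 0.000293; -1.47 without both). Cholesterol synthesis and uptake, lower with tau for 19 of 24 genes in Trem2+/+ and 22 in R47H/+ (22 and 24 without both), had 0 positive and 2 negative interactions (0 and 9 without both). Sqle, a squalene oxidising enzyme of this pathway, had -0.77 (adjusted p = 0.0558), and -0.85 (adjusted p = 0.00639) without both. In cholesterol efflux and lipid handling 4 of 20 were positive and 1 negative (5 and 4 without both), with medians of 0.10 and 0.04. The negative member with all libraries was Cyp27a1, which turns cholesterol into an oxysterol, at -0.95 (adjusted p = 0.00233), and -1.12 without both. In fatty acid synthesis 2 of 16 were positive and 2 negative (5 and 2 without both). Acss2, which makes acetyl-CoA from acetate, rose in Trem2+/+ and was not called in R47H/+. Its interaction was -1.72 (adjusted p = 0.000619, and -1.54 without both). Lpin1, a phosphatase of lipid synthesis, had a tau response of -2.37 in R47H/+. In Trem2+/+ its tau response was -0.65, not called, with all libraries and -1.01, called, without both. For Lpin1 the interaction was -1.73 (adjusted p = 0.011, and -1.34 without both), with an adjusted p of 0.0687 in the 12 libraries alone.

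Genes of DNA replication and mitosis were called for 2 of 35 and 1 of 34 members, all positive (5 and 2 without both), which for mitosis is near the 2.05% and 4.54% of all genes called positive. Tpx2, a spindle protein, had 1.03 (adjusted p = 0.00575; 0.80 without both) and rose in both genotypes, and Gins1, of the replication fork, had 1.68 (adjusted p = 0.0131; 1.16 without both), with an adjusted p of 0.0578 in the 12 libraries alone. Mki67, a proliferation marker, had -0.03 (interval -0.70 to 0.64) with all libraries and 0.30 without both, neither called. Of 28 tested targets of FOXO factors and insulin, 2 were positive and 1, Cdkn1b, negative (4 and 4 without both), with medians of -0.31 and -0.20. The positive Il7r, the receptor for interleukin 7, fell with tau in Trem2+/+ and was not called in R47H/+. Its interaction was 1.22 (adjusted p = 0.0014), and 1.32 without both. In the interferon receptors and regulators 0 of 26 were called (edgeR; 2 positive and 2 negative without both), with a median of -0.10.

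Some strong tau responses had an interaction that was not called, with an interval that spanned 0, with all libraries. The intervals below reach -0.72, so that interactions as large as some of those called in other genes lie within them. The rule for the narrowest interval around 0 among 120 genes with a change of at least 2 on the log2 scale in both named Batf2, Il2rg, Socs1, Klra2, F13a1 and Ndrg1. Socs1, the feedback inhibitor of cytokine and interferon receptors, measured 2.65, 3.07 and 4.25 CPM without and 18.8, 19.9 and 18.1 CPM with tau in Trem2+/+, and 8.64, 8.13 and 7.93 CPM without and 44.3, 48 and 42.9 CPM with tau in R47H/+. Its 4 groups did not overlap, the tau response was 2.52 in Trem2+/+ and 2.45 in R47H/+, and the interaction was -0.07 with an interval of -0.48 to 0.34 (95%; adjusted p = 0.833). The intervals were -0.55 to 0.43 for Il2rg, the common gamma chain of cytokine receptors, -0.68 to 0.17 for Batf2, a factor induced by interferon gamma, -0.57 to 0.51 for Klra2, a lectin-like receptor, -0.71 to 0.56 for F13a1, a coagulation factor of macrophages, and -0.72 to 0.30 for Ndrg1, a stress response gene. Without both the interaction was -0.32 for Socs1, -0.25 for Il2rg, -0.32 for Batf2, -0.16 for Klra2, 0.11 for F13a1 and -0.23 for Ndrg1, with adjusted p of at least 0.292, which does not show that the responses were alike. Batf2, Il2rg, Socs1 and Klra2 rose with tau by at least 2.20 in R47H/+, and F13a1 and Ndrg1 fell by 3.36 and 2.29.

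The interaction of short, abundant genes differed with and without the 2 length-shifted libraries. Across all genes tested the interaction changed by -0.71 log2 per 10-fold gene length with all libraries and by 0.13 without both. With the genes in 10 equal groups by length, the shortest group (median 869 bases) had a median interaction of 0.66 and the longest (median 12092 bases) of -0.44; without both the medians were -0.14 and -0.06. Ribosomal proteins, which are short, had a median of 1.10 over 37 genes with 0 called (edgeR), and -0.01 with 1 called, negative, without both; nuclear genes of oxidative phosphorylation had 0.79 over 34 with 0 called, and -0.08 with 2 called, negative. Rplp1, a ribosomal stalk protein, measured 832, 900.5 and 3314 CPM without and 709, 769 and 698 CPM with tau in Trem2+/+, and 932, 924 and 1001 CPM without and 827, 1494 and 821 CPM with tau in R47H/+. The length-shifted libraries were far above the other replicates, and the interaction was 1.35 (adjusted p = 0.159) against 0.05 without both. Rps15, of the small ribosomal subunit, had 1.37 and 0.11, and Uqcrq, of respiratory complex III, 1.36 and 0.02. These genes were called positive (adjusted p at most 0.0419) when Trem2+/+ replicate 1 without tau was left out, but not when replicate 2 of that group was left out. The cause of this was not tested. They were also called positive with an offset for gene length against the other libraries of the group, at 0.94 (adjusted p = 2.71e-05) for Rplp1, 0.98 (adjusted p = 3.44e-05) for Rps15 and 1.05 (adjusted p = 0.00923) for Uqcrq, but not with the offset against the group median (0.49, 0.56 and 0.87; adjusted p at least 0.142).

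**Figure D5:**
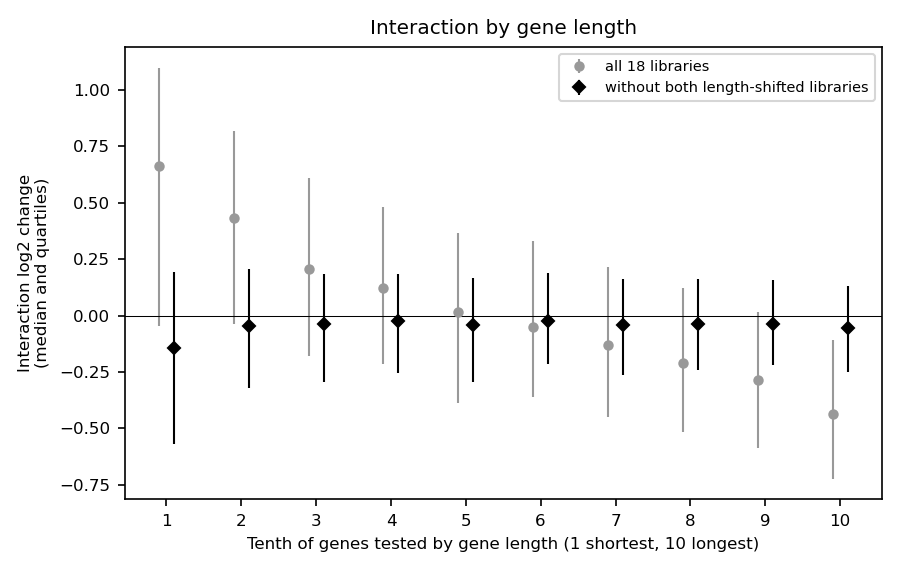
Median and quartiles of the interaction log2 change in 10 equal groups of the genes tested, ordered by gene length, with all 18 libraries in the fit (grey) and without both length-shifted libraries (black). With all libraries the medians run from 0.66 in the shortest to -0.44 in the longest group, and without both they lie between -0.14 and -0.02.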

How the data were processed

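Gene expression was measured by RNA sequencing (NEBNext Ultra libraries, paired-end 150 base reads, per the labels' protocols) in 18 libraries of primary mouse microglia, 6 groups of 3. STAR, featureCounts, DESeq2 and GRCm38 (mm10) are named in the submitters' processing notes, with no versions. The authors deposited 1 table of unnormalized read counts, whole numbers by gene and library, beside gene coordinates and gene lengths in base pairs. Of 54532 genes, 27 symbols turned into dates were restored.

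The analysis used edgeR 4.0.16 in R 4.3.3; limma 3.58.1 and DESeq2 1.42.0 served as alternatives. Genes were kept by filterByExpr, TMM gave the scaling, and all 18 libraries were fitted together with 1 coefficient for each group (12 residual degrees of freedom). The 6 MK2206 libraries enter the filter, the scaling and the estimate of spread. The interaction and the single comparisons were tested two-sided with edgeR's quasi-likelihood F-test, and p-values adjusted by Benjamini-Hochberg across every gene tested (threshold 0.05); the SE is the size of the log2 change divided by the square root of F. CPM use effective library sizes; levels are given per library or as mean ± SD (n = 3). No exact permutation test was run. For the single comparisons, with 3 libraries against 3, its smallest p is 0.1. Replicates of a group differed by more than counting error (chi-square per gene at least 3.47).

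The comparison, 37 gene lists with 933 entries (3 symbols absent from the table), the rule for named genes and the alternatives were chosen with earlier results of these data known; lists are described by counts and medians, with no test. The rule named Trem2, up to 12 genes a direction with the largest interaction called in both fits at a mean log2 CPM of at least 1, up to 3 members a list with the smallest p, and a set of known genes (Tnf, Il1b, Il6, Ccl2, Ccl5, Cxcl10, Nos2, Irf7, Gbp4, Apoe, P2ry12, Mki67). It also named up to 6 genes with strong tau responses and the interaction interval closest to 0, and up to 6 in opposite directions. For Il6 no value is given. Some genes within the rule are not named, among them some whose calls were lost when 1 library was left out; Ifit3 and Gbp7 were added, after their values were seen, for their promoters. The alternatives comprised scaling by RLE, omitting the count filter, DESeq2, voom with sample weights, the 12 libraries alone, a replicate block, each library left out, both length-shifted libraries left out, and an offset for gene length from a lowess fit (span 0.3), whose form against the group median was chosen after seeing the data. The scripts were tested on simulated data. Promoters are RefSeq windows of GRCm38.p6; 9779 of 13266 tested symbols matched.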

Additional observations from a re-analysis of the deposited data

Results flagged for a closer look

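The test of the difference in tau response between the genotypes was itself passed by 713 genes and, among those named, by the genes below, whose values are on the log2 scale, R47H/+ minus Trem2+/+, with all libraries. Among interferon-stimulated genes and their neighbours in the ranking, the difference in tau response was -2.54 for Irf7, -3.29 for Ifi44, -2.50 for Ifit2, -2.07 for Ifit3, -3.15 for Oas3, -3.49 for Apol9b, -4.14 for Apol9a, -3.11 for Ms4a4c, -3.06 for Ifi208, -3.20 for Ly6a, -3.10 for Trim30c and -3.50 for Csprs. For GTPases of the guanylate-binding and immunity-related families, the difference in tau response was -3.74 for Gbp4, -2.51 for Gbp8, -2.16 for Gbp7 and -3.28 for Iigp1. In antigen presentation and costimulation, the difference in tau response was -2.33 for H2-Q6, -1.81 for H2-T24, -1.55 for Tap1, -1.14 for Cd274, 1.31 for Cd40 and 2.11 for Tnfsf9. Beside Trem2, the difference in tau response was -1.55 for Treml2, -2.36 for Ms4a4a and 1.03 for Lat2. For cytokines and chemokines, the difference in tau response was 2.0 for Tnf, 1.65 for Il1b, 1.49 for Il1rn, -2.40 for Tnfsf10 and 2.82 for Cxcl2. For NF-kB targets and feedback genes, the difference in tau response was 2.49 for Bcl2a1a, 2.43 for Clec4e, 1.11 for Nfkbia, 1.73 for Nfkbie, 1.98 for Tnip3 and 1.41 for Sod2. For early response genes and phosphatases, the difference in tau response was 1.99 for Dusp1, 2.74 for Dusp5, 1.69 for Fos, 2.57 for Maff, 2.22 for Egr2 and 0.97 for Atf3. For other genes named by size or by opposite responses, the difference in tau response was 2.79 for Adora2a, 2.43 for Ch25h, 2.39 for Dmpk, 2.47 for Eno2, 2.40 for Hilpda, 2.23 for Marcksl1, 2.23 for Pdpn, 2.21 for Nes and 2.17 for Stap1. In microglial state, complement and matrix genes, the difference in tau response was -1.07 for P2ry12, -0.91 for Cx3cr1, -0.79 for Gas6, 0.79 for Rhob, -1.27 for Axl, -1.37 for Dkk2, -1.76 for C4b, -3.06 for Cfb, 0.71 for C5ar1, 2.0 for Tgm2 and -1.78 for Ccr2. In metabolism, the difference in tau response was 1.09 for Slc2a1, 1.07 for Slc16a3, -0.83 for Pfkfb4, 1.13 for Srxn1, -1.73 for Slc1a4, -1.85 for Slc7a5, -1.72 for Acss2, -1.73 for Lpin1 and -0.95 for Cyp27a1. In replication, mitosis and cytokine reception, the difference in tau response was 1.68 for Gins1, 1.03 for Tpx2 and 1.22 for Il7r.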

How the results depend on the processing

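Of the 74 named genes with a call, 61 were called under all 22 alternatives, 13 lost the call under at least 1 and 0 changed sign. Genes named by size or by opposite responses had to be called without both length-shifted libraries, which is 1 of these alternatives. Others were named for the smallest p, and some with lost calls are not named. The 61 therefore describe the genes named here and do not measure how firm calls are over all genes. Counts of called genes (positive, negative) were 701 (291, 410) with RLE scaling, 682 (252, 430) with no count filter, 1206 (545, 661) with DESeq2, 1847 (709, 1138) with voom sample weights, 360 (126, 234) with the 12 libraries alone, 1610 (613, 997) without both length-shifted libraries, 1458 (616, 842) with the 12 libraries alone and without both, 3131 (1289, 1842) with a length offset against the other libraries of the group and 1089 (413, 676) with one against the group median. Leaving out 1 library gave 471 (without R47H replicate 2) to 1537 calls (without Trem2_WT replicate 1), with 154 to 832 positive and 304 to 705 negative; without Trem2_WT replicate 1, 54.1% of calls were positive, against 38.1% with all. The voom weights of the length-shifted libraries were 0.0343 and 0.118. The cause of these moves was not tested.

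With a replicate block 598 genes were called (216, 382), 586 of them shared with the same sign. Few same-numbered libraries deviated together: 3 of 18 pairs had a correlation over 0.1 (range -0.634 to 0.49). Only 3 of 12 libraries correlated best with their own number. The 2 length-shifted libraries, which have different numbers, correlated at 0.736. Their trends enter the deviations of their groups, so these values cannot show whether the numbers pair the samples.

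The interaction of Trem2 changed sign and became a call under voom weights, without both, and in the 12 libraries without both, at -0.59, -0.63 and -0.60 (adjusted p = 0.00357, 0.00326 and 0.00913). Other values changed sign without a call. In the same 3 settings Ccl2 was -0.16, -0.30 and -0.27, Apoe -0.032, -0.066 and -0.039, Mki67 0.46, 0.30 and 0.33, and F13a1 0.058, 0.11 and 0.13. With the offset against the group median Ccl2 was -0.37, Mki67 0.23 and F13a1 0.073. With 1 library left out the range was -0.28 to 0.29 for Trem2, -0.12 to 0.41 for Ccl2, -0.36 to 0.20 for Mki67, -0.21 to 0.13 for Il2rg, -0.23 to 0.078 for Socs1, -0.15 to 0.14 for Klra2 and -0.24 to 0.11 for F13a1.

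Depth and the 3 libraries a group limit genes with few counts in untreated Trem2+/+ cells, such as Apol9a, Csprs and Nos2.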
